A study of Mus musculus with 74 samples.

Results

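The 8 genes described here are genes of endoderm, read in mouse fibroblasts that were given Sox17 or an engineered Sox17. They are Gata4, Gata6, Foxa1, Foxa2, Hnf4a, Afp, Ttr and Dab2, chosen by gene symbol, and the question was whether the delivered factor turned them on. Of the 8, 7 were found among the 21241 genes of the first expression table (all but Hnf4a) and 6 among the 20558 genes of the second (all but Hnf4a and Foxa2), and the missing ones are not analysed here. Of the 4 lineage regulators measured, only Foxa2 both stood at or near 0 in the starting cells and was called higher than with the Sox2 cocktail. It was called with Sox17 and with the engineered Sox17, each beside Brn4, Klf4 and c-Myc, and reached at most 95. The call with the engineered Sox17 was not kept under every setting. Cells given only Klf4 and the engineered Sox17 were not compared with the Sox2 cocktail. Gata6 and Dab2 were already present in the fibroblasts. At day 4, cells given Klf4 and the engineered Sox17 held more Gata6 than the fibroblasts (means 449 and 176), a call not kept under every setting. The albumin-type carrier Afp and the thyroid hormone carrier Ttr were listed at 0 in most libraries.

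The cells of the first experiment were mouse embryonic fibroblasts (MEFs) with a Sox2-GFP reporter, infected with lentiviruses for the M2rtTA activator and for doxycycline (Dox) inducible factors, and cultured in neural stem cell (NSC) medium with bFGF and EGF. BKM_Sox17 received Brn4, Klf4, c-Myc and Sox17, BKM_FNV received Brn4, Klf4, c-Myc and eSox17FNV, an engineered form of Sox17, K_FNV received Klf4 and eSox17FNV alone, and BKM_Sox2 received Brn4, Klf4, c-Myc and Sox2. Dox was given for 18 days, with libraries at days 4, 8, 12 and 18 under Dox, and again once it had been removed, at days 24 and 30. Established induced neural stem cell lines at passage 15, iNSC_KF and iNSC_BKMF, primary NSCs at passage 15 and MEFs at passage 1 were also sequenced. In the second, parallel experiment, MEFs with Nanog-CreER, Rosa26-tdTomato and Sox2-GFP alleles received Klf4, c-Myc and eSox17FNV in N2B27 medium to day 8, then LIF/2i (LIF and 2 kinase inhibitors, as used for mouse embryonic stem cells) or NSC medium, with Dox to day 16. Each group had 2 libraries, except BKM_Sox17 and BKM_Sox2 at day 30 with 1 each. No group had Dox or NSC medium without factors, so a response to the factors and a response to the medium cannot be told apart against MEFs, while cocktails at the same day share both.

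Values are the authors' normalized tag counts, whole numbers whose read depth is unknown. Columns of a table have nearly the same sum (17698392 to 17710071 in the first table and 17848683 to 17866021 in the second), so a column sum says nothing of depth. Replicates correlated at 0.949 to 0.961 and at 0.937 to 0.955. The library labelled BKM_Sox2 day 24 replicate 1 correlated at 0.0578 with its replicate and was left out. A gene was called higher or lower when its adjusted p, from limma over all genes of the table, was below 0.05 and its log2 difference, on the scale log2(value + 2), was at least 1 in size. Differences are given as log2 ± standard error. In these bulk samples, fewer cells of a type and less RNA per cell cannot be told apart.

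Endoderm forms the gut, liver and pancreas, and in the early embryo an extraembryonic branch forms the yolk sac. SOX17 acts in both branches, together with the zinc finger factors GATA4 and GATA6 and the forkhead pioneer factors FOXA1 and FOXA2, while HNF4A drives genes of liver and yolk sac such as Afp and Ttr. Several of these genes are used elsewhere: Gata4 and Gata6 in heart and mesenchyme, Foxa1 and Foxa2 in the floor plate of the neural tube, Ttr in the choroid plexus, and Dab2, an adaptor for endocytosis, in many cells.

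Delivered Sox17 was read first, as a check of the cocktails. Counts of the delivered and the cell's own Sox17 cannot be told apart. Over days 4 to 18, Sox17 ranged from 4579 to 26505 in BKM_Sox17, from 4018 to 34130 in BKM_FNV and from 10769 to 21719 in K_FNV, and it was listed at 0 in every BKM_Sox2 library used and in MEFs. After withdrawal it was still 1621, 1707 and 2408 in BKM_Sox17 and 3716, 7284, 174 and 167 in K_FNV, but 167, 144, 36 and 30 in BKM_FNV. Sox17 thus stood where the labels of the cocktails place it.

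**Figure D1:**
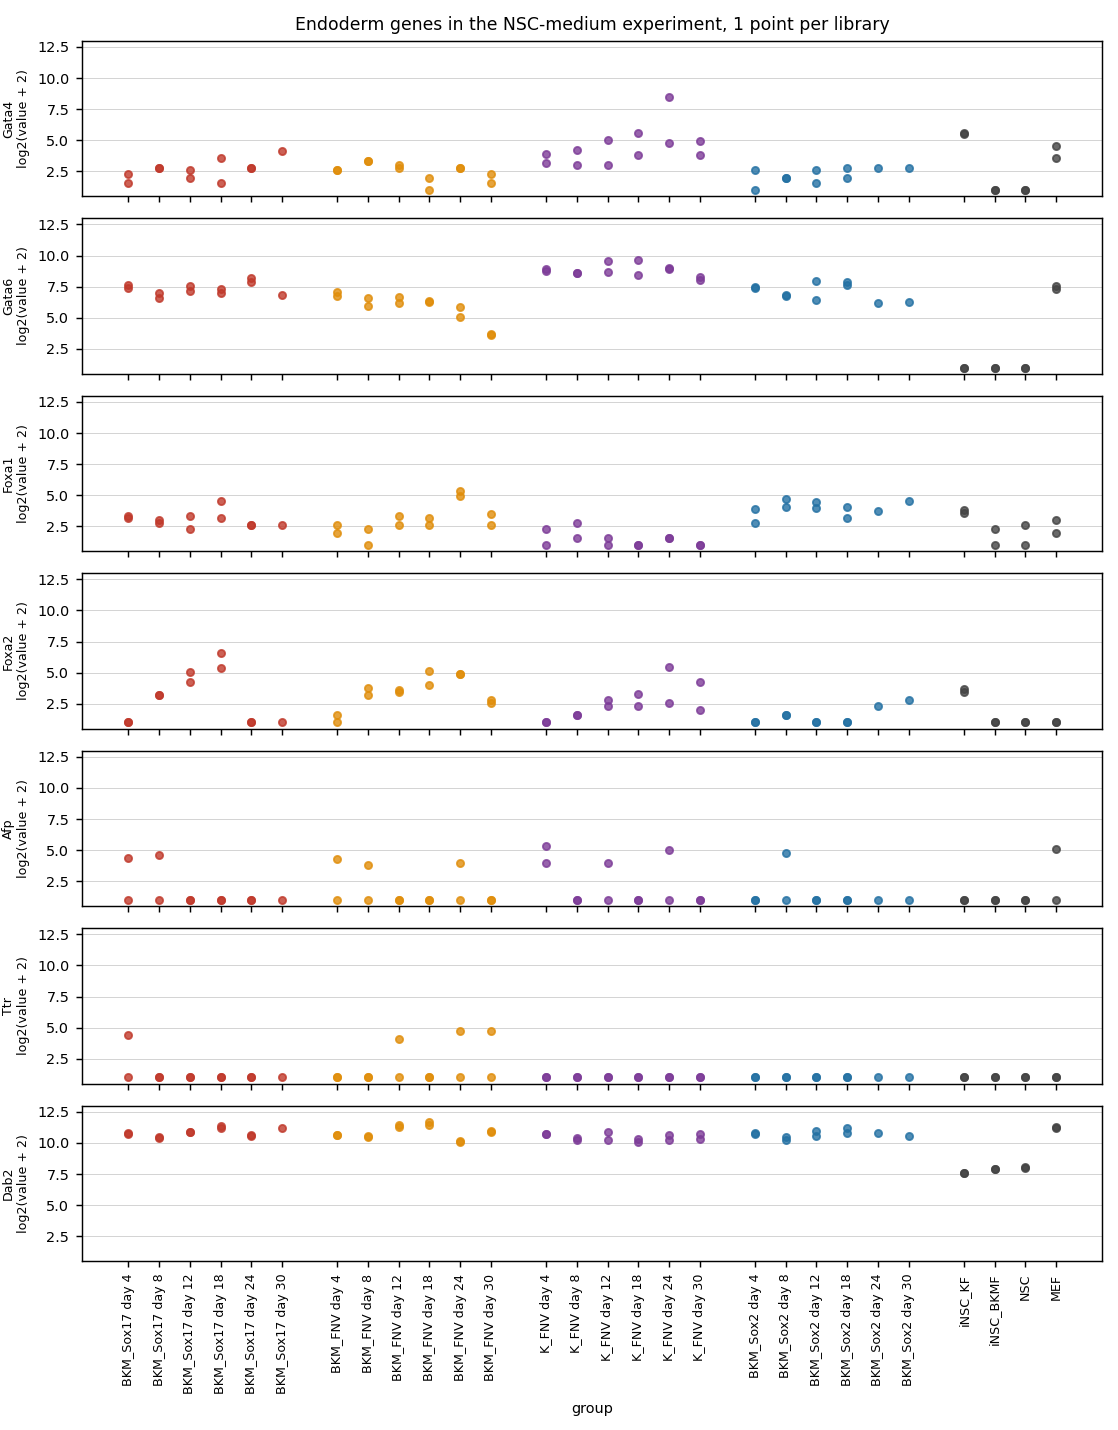
Levels of the 7 measured endoderm genes in each library of the NSC-medium experiment, as log2(value + 2), 1 point per library, grouped by cocktail and day, without BKM_Sox2 day 24 replicate 1. A value listed at 0 lies at 1. Dab2 is high in the 4 cocktails and MEFs, Gata6 is highest in K_FNV, Foxa2 climbs over the days on Dox in BKM_Sox17 and BKM_FNV, and Afp and Ttr are mostly at 0.

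Foxa2 was the gene that separated BKM_Sox17 and BKM_FNV from BKM_Sox2. It lies on chromosome 2 (GRCm38, 148042877 to 148046969, minus strand), and the 250 bases before its outermost RefSeq start are shown with the 250 bases before the RefSeq start of Foxa1 (chromosome 12, 57540628 to 57546916, minus strand), its close relative, which was not called higher with the same cocktails. The sequences, from RefSeq on GRCm38.p6, run 5′ to 3′ on the minus strand, and capitals mark matches to SOX motifs, searched on both strands: ACAAT, and the 7-letter motif in its spellings AACAAAG or AACAATG or ATCAAAG or ATCAATG or TACAAAG or TACAATG or TTCAAAG or TTCAATG, of which those with ACAAT hold the first motif too.
Foxa2, chr2:148046970-148047219: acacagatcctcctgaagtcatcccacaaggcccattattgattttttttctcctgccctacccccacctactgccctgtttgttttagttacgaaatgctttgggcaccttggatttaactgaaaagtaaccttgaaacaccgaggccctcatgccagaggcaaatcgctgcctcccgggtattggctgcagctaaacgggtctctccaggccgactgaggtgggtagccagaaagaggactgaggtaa
Foxa1, chr12:57546112-57546361: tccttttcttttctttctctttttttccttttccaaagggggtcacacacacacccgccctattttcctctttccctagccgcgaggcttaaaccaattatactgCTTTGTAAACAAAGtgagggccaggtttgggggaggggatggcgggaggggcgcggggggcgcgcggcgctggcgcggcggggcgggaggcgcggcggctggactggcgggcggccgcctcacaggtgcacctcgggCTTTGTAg
None of the 3 Foxa2 windows held either motif, and the Foxa1 window held 3 matches to the 7-letter motif and 0 to ACAAT. Among all 32851 promoter windows of the same length, 27.7% held ACAAT and 21.8% held the 7-letter motif. No match says only that these letters are not in this window. The Foxa1 window lies inside the annotated gene span, since its RefSeq start is not the outermost one: all 250 bases fall in an intron of a longer GENCODE transcript, and the last 10 fall in an exon of another.

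In BKM_Sox17, Foxa2 was listed at 0 and 0 at day 4, 7 and 7 at day 8, 17 and 31 at day 12, and 39 and 95 at day 18. In BKM_FNV it was 0 and 1, 7 and 12, 9 and 10, and 14 and 33 at the same days. In BKM_Sox2 it was 0 in 6 libraries and 1 in the 2 libraries of day 8. At days 8, 12 and 18 no library of either Sox17 cocktail overlapped those of BKM_Sox2, while at day 4 all 3 cocktails stood at 0 or 1, as did MEFs at 0 and 0.

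Over the 4 days on Dox, Foxa2 was higher in BKM_Sox17 than in BKM_Sox2 by log2 2.55 ± 0.31 (group means 24.5 and 0.25, adjusted p = 3.04e-07). It was higher in BKM_FNV than in BKM_Sox2 by 2.07 ± 0.31 (10.8 and 0.25, adjusted p = 5.10e-06). With a pseudocount of 10 in place of 2 the first difference fell to 1.3 and was still called. The second fell to 0.88, below the limit of 1, with an adjusted p of 0.000693. Differences at levels this low depend on the pseudocount. Between BKM_FNV and BKM_Sox17 the difference was -0.48 ± 0.31 (10.8 and 24.5, adjusted p = 0.271) and was not called.

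These were 1 of 7 members called higher and 0 lower in BKM_Sox17 against BKM_Sox2, where 3.98% of all 20760 genes were called, and 1 higher and 1 lower in BKM_FNV against BKM_Sox2, where 6.18% were. In BKM_FNV against BKM_Sox17 limma called 0 of the 7, against 3.72% of all genes called. Unadjusted p was below 0.05 for 3 of the 7 and for 7484 of all 20760 genes. The median log2 difference of the 7 members in these 3 comparisons was 0.34, 0.3 and -0.11, against 0.01, -0.01 and -0.03 for all genes. The first 2 comparisons share the BKM_Sox2 libraries.

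The course of Foxa2 differed between cocktails. From day 4 to day 18 it rose in BKM_Sox17 (adjusted p = 1.25e-07) and in BKM_FNV (adjusted p = 5.48e-05), and was 0 in all 4 BKM_Sox2 libraries of those days. No fold is given against a day listed at 0 in part or in whole. Of the 7 members it was the only one called in BKM_Sox17 and in BKM_FNV, against 19% and 22.9% of all genes. In BKM_Sox2 limma called 0 of 7, against 17% of all genes. There 0 of the 7 had an unadjusted p below 0.05, against 9978 of all 20760 genes. Tests of the difference between courses, added after the data were seen, gave adjusted p = 0.000579 for BKM_Sox17 against BKM_Sox2 and 0.00967 for BKM_FNV against BKM_Sox2. Each called 1 of 7 members, against 4.92% and 7.28% of all genes. The test for BKM_FNV was lost without its day 18 replicate 2, the library with 33 (adjusted p = 0.0642), and with BKM_Sox2 day 24 replicate 1 kept in the fit (adjusted p = 0.119).

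After Dox withdrawal Foxa2 was listed at 0 in all 3 BKM_Sox17 libraries. In BKM_FNV it was 28 and 28 at day 24 and 5 and 4 at day 30, and in BKM_Sox2 3 at day 24 and 5 at day 30. BKM_FNV was higher than BKM_Sox17 (adjusted p = 2.23e-05), and no library overlapped at either day. BKM_Sox17 was not called against BKM_Sox2 (adjusted p = 0.0559), though no library overlapped at either day and 4 alternatives called it lower: the fit of the compared groups alone (adjusted p = 0.000399), a pseudocount of 1 (0.011), BKM_Sox2 day 24 replicate 1 kept in (0.0216) and quantile normalization (0.0257). BKM_FNV against BKM_Sox2 gave 1.24 ± 0.53 (16.2 and 4, adjusted p = 0.0591) and was not called, although the fit of the compared groups alone gave adjusted p = 0.00767 and a median-of-ratios rescaling 0.0344. Library names in the label descriptions follow 1 style up to day 18 and another from day 24, and whether this marks a batch is unknown, so the step from day 18 to day 24 was not tested.

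In K_FNV, without Brn4 and c-Myc, Foxa2 was 0 and 0 at day 4, 1 and 1 at day 8, 3 and 5 at day 12 and 8 and 3 at day 18. It was lower than in BKM_FNV over these days (-1.22 ± 0.31, means 2.62 and 10.8, adjusted p = 0.00119), a call that ended with a pseudocount of 10 (-0.61). It was the only 1 of 7 members called between day 4 and day 18 (adjusted p = 0.0247), against 10.4% of all genes. The call was lost in the fit of the compared groups alone (adjusted p = 0.116) and with quantile normalization (0.0503). It was also lost with a pseudocount of 10 (log2 0.61) and with BKM_Sox2 day 24 replicate 1 kept in (adjusted p = 0.169). Of 4 fits that left out 1 library, 3 lost it, and without day 18 replicate 1 the difference was 1.32. At day 24 its libraries held 4 and 43, and at day 30 2 and 17, so its replicates lay far apart. The established line iNSC_KF held 11 and 9, while iNSC_BKMF, NSCs and MEFs held 0.

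Foxa2 thus ranked highest in BKM_Sox17 at day 18, with a mean of 67 ± 39.6 (SD, n = 2), followed by BKM_FNV at day 24 with 28. Of the 27 steps in the order of its group means, 25 joined groups whose libraries overlapped, and the step below BKM_Sox17 day 18 was not one of them. K_FNV day 24, further down the order with 4 and 43, did overlap BKM_Sox17 day 18 with its 39 and 95.

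**Figure D2:**
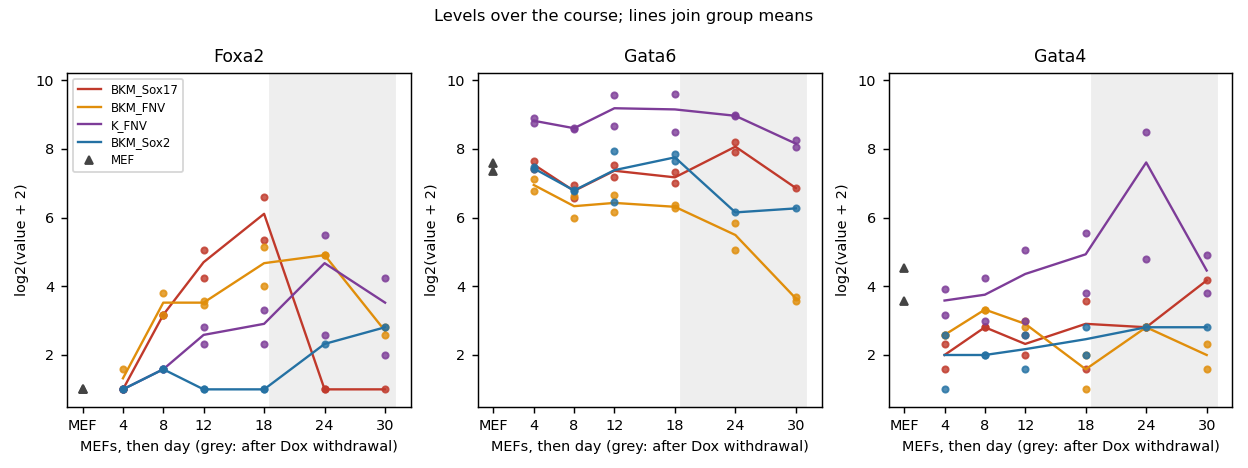
Levels of Foxa2, Gata6 and Gata4 by day in the 4 cocktails, as log2(value + 2), with MEFs at the left. Points are libraries, lines join group means, grey marks days 24 and 30 after Dox withdrawal, and BKM_Sox2 day 24 replicate 1 is left out. Foxa2 starts at or near 0 and climbs to 39 and 95 in BKM_Sox17 at day 18, and Gata6 lies above the other cocktails in K_FNV at day 4.

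Foxa1 followed no such course. It ranged from 3 to 21 in BKM_Sox17 on Dox, from 0 to 8 in BKM_FNV, from 0 to 5 in K_FNV and from 5 to 24 in BKM_Sox2, against 2 and 6 in MEFs. The highest single value on Dox was thus in the Sox2 cocktail. Foxa1 was lower in BKM_FNV than in BKM_Sox2 (-1.46 ± 0.30, means 4 and 14.1, adjusted p = 0.000367), again short of the limit with a pseudocount of 10 (-0.76). In BKM_Sox17 against BKM_Sox2 it was not called (-0.70 ± 0.30, adjusted p = 0.1). After withdrawal it reached its highest values, 38 and 28, in BKM_FNV at day 24, and was 9 and 4 there at day 30, against 4, 4 and 4 in BKM_Sox17 (1.48 ± 0.48, adjusted p = 0.0104). With a pseudocount of 10 that difference was 0.91, and with BKM_Sox2 day 24 replicate 1 kept in the fit its adjusted p was 0.061. Libraries of the 2 cocktails overlapped at day 30. In K_FNV after withdrawal Foxa1 was 1, 1, 0 and 0, lower than in BKM_FNV (-2.78 ± 0.43, means 0.5 and 19.8, adjusted p = 2.53e-06).

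Gata6, on chromosome 18 (11052064 to 11085635, plus strand), was expressed in the fibroblasts before any factor. NSCs, iNSC_KF and iNSC_BKMF were listed at 0, against 161 and 190 in MEFs, and NSCs were lower than MEFs (adjusted p = 1.52e-15). On Dox Gata6 ranged from 93 to 199 in BKM_Sox17, from 61 to 136 in BKM_FNV and from 86 to 243 in BKM_Sox2. The difference of BKM_Sox17 from BKM_Sox2 was -0.09 ± 0.17 (means 149 and 164, adjusted p = 0.787), with no call. BKM_FNV lay below both, by -0.71 ± 0.17 against BKM_Sox17 (adjusted p = 0.00302) and -0.80 ± 0.17 against BKM_Sox2 (adjusted p = 0.000625), less than the limit of 1.

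K_FNV was the cocktail with more Gata6. Its libraries held 425 and 473 at day 4, 383 and 389 at day 8, 755 and 402 at day 12 and 776 and 354 at day 18. Every one lay above every BKM_FNV and MEF library. At day 4 Gata6 was higher than in MEFs (1.35 ± 0.35, means 449 and 176, adjusted p = 0.00221), a call lost when BKM_Sox2 day 24 replicate 1 was kept in the fit (adjusted p = 0.156). Over the days on Dox it was higher in K_FNV than in BKM_FNV by 2.40 ± 0.17 (means 495 and 90.4, adjusted p = 1.99e-12).

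After withdrawal Gata6 was 493 and 500 at day 24 and 301 and 263 at day 30 in K_FNV, against 55 and 31, and 11 and 10, in BKM_FNV (4.01 ± 0.25, adjusted p = 6.31e-14). BKM_Sox17 held 293 and 238 at day 24 and 114 at day 30, and BKM_Sox2 held 69 and 75. BKM_FNV was lower than BKM_Sox17 (-2.92 ± 0.28, means 26.8 and 190, adjusted p = 9.08e-10). It was also lower than BKM_Sox2 (-1.67 ± 0.30, means 26.8 and 72, adjusted p = 5.52e-05), but not with BKM_Sox2 day 24 replicate 1, which held 6, kept in the fit (adjusted p = 0.0989). BKM_Sox17 was higher than BKM_Sox2 (1.25 ± 0.33, means 190 and 72, adjusted p = 0.00621), a call lost in the fit of the compared groups alone (adjusted p = 0.106). Of the cocktails, BKM_FNV after withdrawal was the nearest to the 0 of the neural lines.

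Gata4, on chromosome 14 (63198922 to 63271692, minus strand), stayed low. iNSC_KF held 46 and 44, NSCs and iNSC_BKMF 0, and MEFs 10 and 21. On Dox it ranged from 1 to 10 in BKM_Sox17, from 0 to 8 in BKM_FNV, from 6 to 45 in K_FNV and from 0 to 5 in BKM_Sox2. It was not called in BKM_Sox17 or BKM_FNV against BKM_Sox2 (0.34 ± 0.41, adjusted p = 0.626, and 0.51 ± 0.41, adjusted p = 0.397). In K_FNV it was higher than in BKM_FNV (1.39 ± 0.41, means 17.1 and 4.62, adjusted p = 0.00537), though short of the limit with a pseudocount of 10 (0.77).

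After withdrawal Gata4 was 26 and 359 at day 24 and 12 and 28 at day 30 in K_FNV, against 5 and 5, and 1 and 3, in BKM_FNV (3.12 ± 0.58, adjusted p = 4.41e-05). A single library, K_FNV day 24 replicate 2, made much of this, and without it the difference was 2.20 (adjusted p = 0.000954). At day 4 Gata4 was lower than in MEFs in BKM_Sox17 (means 2 and 15.5, adjusted p = 0.0371) and in BKM_Sox2 (means 2 and 15.5, adjusted p = 0.0251). Both calls were lost without MEF replicate 2 (adjusted p = 0.218 and 0.172).

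Against MEFs at day 4, 0 members were called higher and 1 lower in BKM_Sox17, 1 higher in K_FNV, and 1 lower in BKM_Sox2, where 18.7%, 18% and 19.3% of all genes were called. In BKM_FNV limma called 0, against 20.5% of all genes, with 1 at an unadjusted p below 0.05, against 11333 of all 20760 genes. The summed level of 12 macrophage genes moved with this comparison: 323 to 429 in BKM_Sox17, 451 and 471 in BKM_FNV, 751 and 790 in K_FNV and 549 and 603 in BKM_Sox2 at day 4, against 3539 and 3865 in MEFs. At day 4, C1qa was at 0 in every library of BKM_Sox17 and BKM_FNV, and none of the 12 was at 0 in MEFs. The part of these cells in the MEF levels was not tested.

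Of the comparisons between cocktails on Dox, K_FNV against BKM_FNV had the most members called, 2 higher and 1 lower of 7, against 14.5% of all genes. The summed level of 10 choroid plexus genes ran from 3596 to 12888 in K_FNV and from 562 to 1352 in BKM_FNV on Dox. Of the 10, 3 were called higher, Aqp1 (means 4854.8 and 663.4), Sostdc1 (1721.8 and 145.2) and Msx1 (108.9 and 52.9), and 1 lower, Kcnj13 (means 0 and 14.5). Kcnj13 was thus at 0 in all 8 K_FNV libraries on Dox, Otx2 in 7 of 8, and Ttr, the hallmark product of choroid plexus, in all 12 K_FNV libraries. Of 12 fibroblast genes 5 were higher and 0 lower, with a summed level of 182416 to 296780 in K_FNV and 90483 to 253201 in BKM_FNV on Dox, and none of them was at 0. The part of such cells in the GATA levels was not tested.

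**Figure D3:**
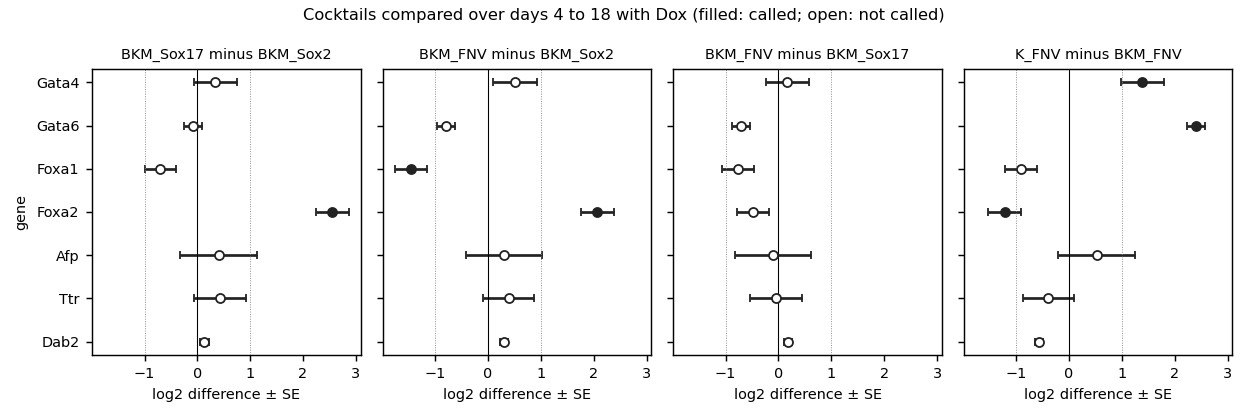
Log2 differences ± standard error of the 7 members over days 4 to 18 on Dox, from limma, as the first cocktail minus the second of each panel title. Filled points are called and dotted lines mark a log2 difference of 1 in size. Foxa2 is called higher in BKM_Sox17 and in BKM_FNV than in BKM_Sox2, and Gata4 and Gata6 in K_FNV than in BKM_FNV.

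Afp and Ttr, products of differentiated endoderm, were at 0 in most libraries of the NSC-medium experiment. Afp, the fetal counterpart of albumin, on chromosome 5 (90490737 to 90508907, plus strand), was at 0 in 42 of 53 libraries and at most 38. It was 14 and 38 in K_FNV at day 4, and in every other group with a value above 0 the other replicate was at 0, MEFs included with 32 and 0. Afp was called in none of the comparisons with limma, and its smallest adjusted p on Dox between cocktails was 0.57. In K_FNV at day 18 Afp was 0 and 0, not called against day 4 (adjusted p = 0.0563). With a pseudocount of 10 limma called it lower there (-1.76, adjusted p = 0.0495). Ttr, on chromosome 18 (20665280 to 20674321, plus strand), was at 0 in 49 of 53 libraries, and its other libraries were BKM_Sox17 day 4 with 19 and BKM_FNV days 12, 24 and 30 with 15, 25 and 25, each with a replicate at 0. It was called in BKM_FNV against BKM_Sox17 after withdrawal (means 12.5 and 0, adjusted p = 0.0433), lost without BKM_FNV day 24 replicate 2 (adjusted p = 0.314) or without day 30 replicate 2 (adjusted p = 0.313). The smallest values above 0 were 12 for Afp and 15 for Ttr, so a value of 0 here covers a range of low levels.

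Dab2, on chromosome 15 (6299788 to 6440712, plus strand), marks primitive endoderm in the embryo but was present in every library used. NSCs held 251 and 263, against 2407 and 2505 in MEFs (-3.25 ± 0.16, adjusted p = 2.59e-16), and the lines held 188 to 242. The NSC comparison called 3 of 7 members, all lower than in MEFs, against 34.4% of all genes. On Dox Dab2 was not called between any cocktails: it ranged from 1360 to 2683 in BKM_Sox17, from 1434 to 3365 in BKM_FNV, from 1104 to 1837 in K_FNV and from 1202 to 2397 in BKM_Sox2. Short of the limit of 1, limma put Dab2 higher in BKM_FNV than in BKM_Sox2 (0.30 ± 0.08, adjusted p = 0.00439). It was lower in K_FNV than in BKM_FNV (-0.57 ± 0.08, adjusted p = 6.93e-07). Its highest values, 3365 and 2753, were those of BKM_FNV at day 18.

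After withdrawal BKM_Sox17 had 1 member called higher and 0 lower against BKM_Sox2, with 8.02% of all genes called. BKM_FNV had 0 higher and 1 lower against BKM_Sox2 (15.1%), and 3 higher and 1 lower against BKM_Sox17 (17.8%). K_FNV had 2 higher and 2 lower against BKM_FNV (21.7%). Of the 2 lower, Ttr (means 0 and 12.5, adjusted p = 0.0232) lost its call in the fit of the compared groups alone (adjusted p = 0.253). It also lost it with BKM_Sox2 day 24 replicate 1 kept in (0.0948). The members did not move in 1 direction in the last 2 comparisons, since Gata6 and Foxa1 went opposite ways in both.

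Other endoderm genes, from lists chosen with earlier results of these data known, gave the surroundings of these values, and the shares of all genes called stand beside their counts. Of 9 tested genes of definitive endoderm and gut tube, limma called 0 in BKM_Sox17 against BKM_Sox2 on Dox (3.98% of all genes). Unadjusted p was below 0.05 for 2 of the 9 and for 6969 of all 20760 genes. In BKM_FNV against BKM_Sox2 (6.18%) limma called 1 higher, Trh, a releasing hormone precursor also made in the brain (1.74 ± 0.28, means 11.8 and 0.75). The median difference of the list was 0.06 in both, against 0.01 and -0.01 for all genes.

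Of 15 tested genes of extraembryonic endoderm, 5 were higher and 0 lower in BKM_Sox17 than in BKM_Sox2, where 2.12% of all genes were called higher and 1.86% lower, with a list median of 0.3 against 0.01 for all genes. Among them were the basement membrane genes Lama1 (1.64 ± 0.13, means 1641 and 495), Col4a1 (1.34 ± 0.13) and Col4a2 (1.27 ± 0.09). Col4a1 and Col4a2 are also made by fibroblasts, at 12147 and 12926 for Col4a1 in MEFs, and Sox7, the SoxF relative typical of that tissue, was not called (-0.39 ± 0.34, adjusted p = 0.463). In BKM_FNV against BKM_Sox2, with 3.37% of all genes called higher, 2 were higher, Srgn, a proteoglycan core protein (3.03 ± 0.30, means 304 and 32), and Apoe, a lipid carrier (1.63 ± 0.27, means 664 and 98.2). The list median there was 0.23, against -0.01 for all genes.

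Liver-type secreted proteins gave 0 of 10 called by limma in BKM_Sox17 against BKM_Sox2 (3.98% of all genes). An unadjusted p below 0.05 was found for 1 of the 10, against 6969 of all 20760 genes. In BKM_FNV against BKM_Sox2, where 3.37% of all genes were called higher, 2 were higher. They were the protease inhibitors Serpina1b (means 12.2 and 0, adjusted p = 2.22e-05) and Serpina1d (1.80 ± 0.33, means 7.5 and 0.62), both near 0. The list medians were 0.1 and 0.17, against 0.01 and -0.01 for all genes. These 2 genes belong to a family of near-identical copies, between which reads may be split.

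The comparison of K_FNV with BKM_FNV on Dox called more genes, both of these lists and of the whole table, where 7.5% were called higher and 6.97% lower with a median of 0.01. Here 9 of 15 extraembryonic genes were higher and 1 lower (median 1.15), with Srgn at 6221 and 304 (4.17 ± 0.30), Thbd, the thrombin receptor thrombomodulin, at 10391 and 1377 (2.92 ± 0.17) and Fst, the activin antagonist follistatin, at 4208 and 738 (2.52 ± 0.09). Sox7 was also higher (2.26 ± 0.34, means 133 and 27.1). Of 10 liver-type genes 6 were higher and 2 lower (median 1.72). Among the higher were Alb (3.97 ± 0.86, means 93 and 7.62), Apob (3.94 ± 0.78, means 55.9 and 4.88) and Trf (2.70 ± 0.27, means 235 and 22.9). The members Afp (0.52 ± 0.72, limma adjusted p = 0.57) and Ttr (-0.39 ± 0.49, adjusted p = 0.533) were not called in this comparison. The blood and mesenchyme factor Gata2 rose with Gata4 and Gata6 (2.76 ± 0.17, means 794 and 122). Of 11 heart and mesenchyme genes 3 were higher and 0 lower (median 0.11), Tnnt2 (3.58 ± 0.28, means 484 and 37.5), Hand2 (1.95 ± 0.25) and Tbx5 (1.66 ± 0.13). The definitive endoderm list had 1 of 9 higher, Trh (median 0.37), so the lists did not rise evenly.

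After withdrawal, BKM_FNV differed from BKM_Sox17 in floor plate genes as well as in Foxa2. Of 8 such genes 4 were higher and 0 lower (median 1.49, against -0.09 for all genes, of which 17.8% were called). Among them were Shh, a signal of the floor plate (means 153 and 0, adjusted p = 5.24e-07), and Nkx6-1 (5.54 ± 0.35, means 133 and 0.5). Of the definitive endoderm genes 4 of 9 were higher, with Onecut1 (means 167 and 0, adjusted p = 5.42e-07) and Trh (4.62 ± 0.44, means 370 and 1.75), both of which the brain also expresses. A gene's place in either list does not fix the tissue it comes from. The summed level of the 8 floor plate genes was 4444 to 4863 in BKM_FNV and 2869 to 3750 in BKM_Sox17, where Shh and Foxj1 were at 0 in every library. After withdrawal it was 3268 to 7322 in K_FNV and 2859 and 3109 in BKM_Sox2. It was 10024 and 10492 in NSCs and 7932 and 8450 in iNSC_BKMF, both with Foxa2 at 0. The highest sums, 20709 and 30682, were in iNSC_KF, with Foxa2 at 9 and 11. Neural stem cell genes were also higher in BKM_FNV than in BKM_Sox17 after withdrawal, with 8 of 10 called higher and 0 lower. Their summed level was 10059 to 19834 in BKM_FNV against 982 to 1721 in BKM_Sox17, where Fabp7, Olig2 and Sox3 were at 0 in every library. The part of such cells in the Foxa2 values was not tested. On Dox the floor plate list gave 0 of 8 called by limma in BKM_Sox17 against BKM_Sox2 (3.98% of all genes). It also gave 0 of 8 in BKM_FNV against BKM_Sox2 (6.18%). Unadjusted p was below 0.05 for 2 of the 8 in the first, against 6969 of all 20760 genes. In the second it was for 5 of the 8, against 8431 of all 20760.

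The genes whose group means followed those of Gata6 most closely over the 28 groups, among 15886 genes, were Fxyd5 (r = 0.971), Tbx5 (r = 0.968) and Rftn1 (r = 0.965). For Dab2 they were Sp100 (0.949), Fhl2 (0.949) and Akr1c14 (0.945), and for Gata4 the weaker Atp6ap2 (0.749), Ms4a6b (0.748) and Cpeb1 (0.746). These correlations describe group means of libraries normalized together, many of which share a cocktail. The other members did not reach a group mean of 100, the minimum for this comparison.

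The parallel experiment gave the same eSox17FNV with Klf4 and c-Myc in other media. Sox17 ranged from 3064 to 39810 over days 12 and 16 on Dox and from 8832 to 20427 in N2B27. Values of its table were normalized apart from the first and are compared only within it. The MEF, NSC and iNSC_BKMF libraries in it are those of the first experiment, and the MEFs carried fewer reporter alleles than the cells that were infected.

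In N2B27 at day 4 the GATA and Foxa1 genes were lower than in MEFs. Gata6 was 47 and 51, against 170 and 199 in MEFs (-1.87 ± 0.31, adjusted p = 2.00e-04). Gata4 was 3 and 2, against 13 and 26 (-2.20 ± 0.59, adjusted p = 0.00834), and Foxa1 was 0 and 0, against 4 and 8 (adjusted p = 0.0156). The calls of Gata4 and Foxa1 were lost without MEF replicate 2 (adjusted p = 0.0861 and 0.118). These were 3 of 6 members lower and 0 higher, with 18.4% of all 20468 genes called. The 12 macrophage genes were also lower here, with a summed level of 169 to 469 over days 4 and 8 in N2B27, against 3504 and 3821 in MEFs, and their part was not tested. From day 4 to day 8 limma called 0 of 6, against 4.71% of all genes, with 1 at an unadjusted p below 0.05, against 6005 of all 20468 genes.

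On Dox, LIF/2i held Dab2 at 388 and 378 at day 12 and 367 and 353 at day 16, against 622 and 637, and 1281 and 1347, in NSC medium (-1.29 ± 0.06, adjusted p = 6.70e-10). Gata4 was higher in LIF/2i, with 12, 15, 21 and 20, against 4, 6, 3 and 3 in NSC medium (1.66 ± 0.42, adjusted p = 0.00464), short of the limit with a pseudocount of 10 (0.94). These were 1 of 6 higher and 1 lower, against 15.5% of all genes. After withdrawal Dab2 was 528, 507, 442 and 430 in LIF/2i, against 1900, 1709, 1471 and 1193 in NSC medium (-1.70 ± 0.06, adjusted p = 9.87e-12), the only member of 6 called, against 24.5% of all genes.

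Withdrawal of Dox went with higher, still low, values of several members. In NSC medium Ttr was 0 in all libraries of days 12 to 20 and 63 and 42 at day 24. Foxa1 was 1, 1, 0 and 1 on Dox, 2 and 3 at day 20 and 25 and 21 at day 24. Gata6 was 17, 16, 32 and 35 on Dox, 57 and 87 at day 20 and 63 and 96 at day 24. The cells after withdrawal were called higher than those on Dox for Ttr (means 26.2 and 0, adjusted p = 0.0136), Foxa1 (1.96 ± 0.41, means 12.8 and 0.75, adjusted p = 9.08e-04), Gata6 (1.57 ± 0.22, means 75.8 and 25, adjusted p = 2.01e-05) and Gata4 (1.44 ± 0.42, means 28.8 and 4, adjusted p = 0.00867).

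These were 4 of 6 members, against 20.5% of all genes. Gata4 was 21 and 86 at day 24 against 2 to 6 at days 12 to 20, and its call was lost without the library with 86 (0.95, adjusted p = 0.051). In LIF/2i 2 of 6 were called higher after withdrawal than on Dox, against 11.6% of all genes: Gata6 (1.16 ± 0.22, means 40.2 and 16.2, adjusted p = 6.73e-04) and Foxa1 (1.49 ± 0.41, means 13.2 and 2.5, adjusted p = 0.00981). The Gata6 value fell just short of the limit without day 24 replicate 2 (0.99) or without day 12 replicate 1 (0.98). With a pseudocount of 10 both LIF/2i values fell short of it (Gata6 0.89, Foxa1 0.79). So did Foxa1 (0.92) and Gata4 (0.98) in NSC medium, where Ttr (1.31) and Gata6 kept their calls. Fibroblast genes were higher in sum after withdrawal than on Dox in NSC medium, while in LIF/2i the ranges overlapped. Their summed level was 307380 to 314827 after withdrawal, against 60175 to 153261 on Dox, in NSC medium, with 5 of 12 called higher and 2 lower. In LIF/2i it was 193107 to 298154 after withdrawal, against 108570 to 227640 on Dox, with 1 higher and 2 lower. None of the 12 was at 0 in these libraries, and MEFs, with 308473 and 312840, also held more Gata6, at 170 and 199. The part of fibroblasts in the Gata6 values was not tested. Days on and off Dox differ in time as well, and the 2 cannot be told apart.

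**Figure D4:**
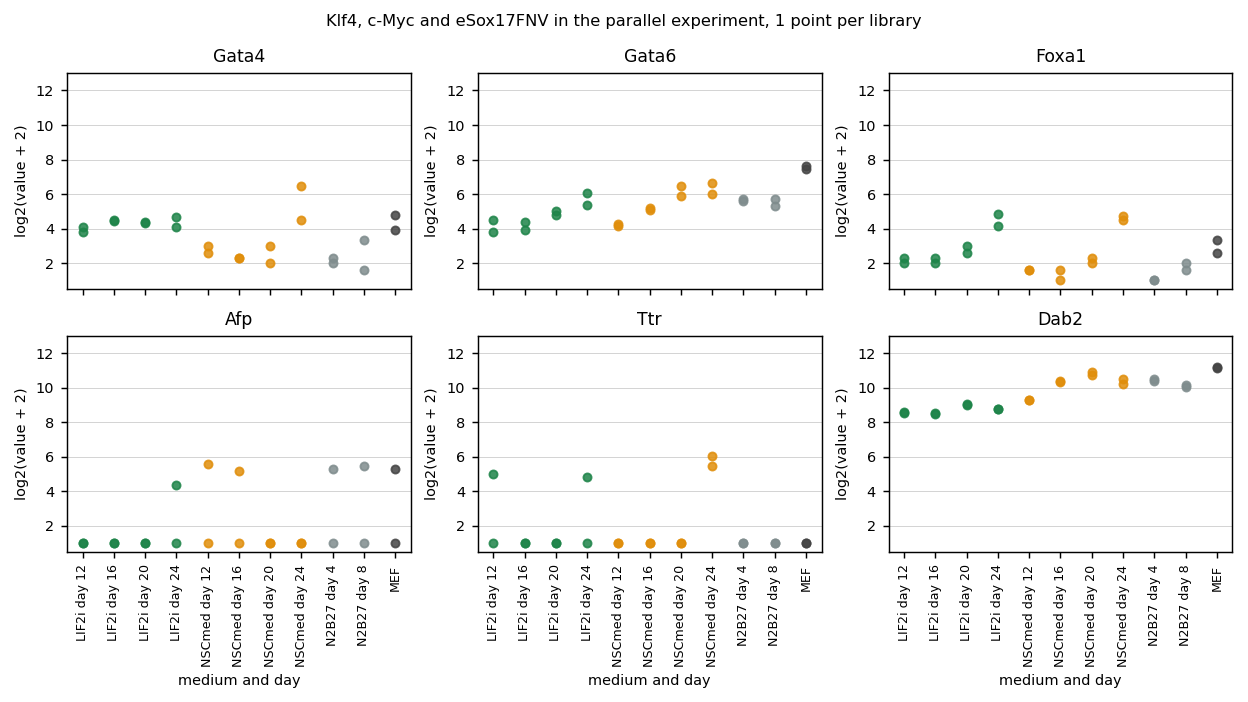
Levels of the 6 members measured in the parallel experiment, as log2(value + 2), 1 point per library, by medium and day, with Dox to day 16. A value listed at 0 lies at 1. Dab2 is lower in LIF/2i than in NSC medium at each day, and Ttr and Foxa1 in NSC medium are highest at day 24.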

How the data were processed

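The files are RNA-seq tables of mouse cells. The authors deposited 1 table of normalized tag counts per experiment, treated here as a score since these are neither raw nor per-million values. Per the submitters' processing notes, Bowtie2 2.0, RSEM and the mm10 build were used, and the normalization is not given in the sources used here. Groups came from the labels, the NSC columns could be matched to their group only, and 4 columns matched none of the labelled samples and were set aside. Nothing in the labels ties replicates to separate cultures, so p-values measure only the spread between these libraries, which may be technical.

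Values were compared as log2(value + 2) for genes with at least 10 in at least 2 libraries (20760 of 21241 and 20468 of 20558). One group-means model per table was fitted with limma 3.58.1 in R 4.3.3 (moderated, trend of variance, two-sided), averaging differences within days, with Benjamini-Hochberg adjustment within each contrast. BKM_Sox2 day 24 replicate 1 was left out and kept as an alternative. The scripts were tested on simulated data. Other settings tried were the pseudocount, the filter, 2 rescalings, the compared groups alone, a replicate block and leaving out each library. All 8 members are named, with up to 3 called genes of largest change per other list and the 3 genes most like each member that reaches 100. Exceptions, among them values given for contrast, were chosen after they were seen. Members and lists were chosen with earlier results of these data known. The interaction tests and the 7-letter motif were added after the data were seen. Promoter sequences came from RefSeq for 5 members.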

Additional observations from a re-analysis of the deposited data

Results flagged for a closer look

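Tests of a difference between courses, added after the data were seen, singled out 3 values. The change of Foxa2 between day 4 and day 18 was greater in BKM_Sox17 than in BKM_Sox2 by 4.98 ± 0.87 on the log2(value + 2) scale (adjusted p = 0.000579, limma), with day 18 at 39 and 95 in BKM_Sox17, against 0 and 0 in BKM_Sox2. It was greater in BKM_FNV than in BKM_Sox2 by 3.27 ± 0.87 (adjusted p = 0.00967), with 14 and 33 in BKM_FNV at day 18. As the BKM_Sox2 libraries of both days and nearly all day 4 libraries were at 0, both sizes depend on the pseudocount and are no folds. Dab2 moved in opposite directions over these days. In K_FNV it was 1669 and 1725 at day 4 and 1254 and 1104 at day 18 (-0.53 ± 0.16), and in BKM_FNV 1605 and 1586 at day 4 and 3365 and 2753 at day 18 (0.93 ± 0.16), neither reaching the limit of 1. The difference between these changes was -1.46 ± 0.23 (adjusted p = 1.75e-05). That test called 1 of 7 members, against 14.7% of all genes, and lost its call with BKM_Sox2 day 24 replicate 1 kept in the fit (adjusted p = 0.909). No group had the 4 libraries needed to look for a library apart from the rest.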

How the results depend on the processing

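Of 176 member results, 40 of them called, no alternative turned the direction of a called one: over all alternatives 2525 values kept their side of the threshold, 60 lost a call and 28 gained one. Counts of called genes over the whole table stayed within 1.5 times under a pseudocount of 1, no filter and both rescalings. The rescalings had little to change. Libraries used from the first experiment all had a median of 166 and a maximum of 78139. Those of the second had a median of 195 or 194 and a maximum of 87546. The filter had removed few genes, so these settings were weak tests. Keeping BKM_Sox2 day 24 replicate 1 moved 12 of 17 counts, to 536 for BKM_Sox17 against BKM_Sox2 on Dox and 448 for BKM_FNV against BKM_Sox17, to 2025, 2268, 1764 and 2166 for day 4 of BKM_Sox17, BKM_FNV, K_FNV and BKM_Sox2 against MEFs, to 1706, 2113, 737 and 1470 for day 18 against day 4 of the same cocktails, and after withdrawal to 2266 for BKM_FNV against BKM_Sox17 and 6694 for BKM_FNV against BKM_Sox2. Fitting the compared groups alone gave 2128 for the BKM_Sox2 course, 1236 for the K_FNV course and 294 for N2B27 day 8 against day 4, and a pseudocount of 10 gave 497 for BKM_FNV against BKM_Sox17 on Dox.

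Leaving out 1 library at a time moved the N2B27 day 8 against day 4 count to between 544 and 1195, lowest without day 8 replicate 2 and 629 without day 4 replicate 1, and no other count by over 1.5 times. A lone remaining library is assumed to vary like the other groups, and groups of 1 library could not be left out. Same-numbered libraries did not pair: correlations of their differences ran from -0.0756 to 0.0918 over 276 pairs of groups and from -0.0498 to 0.0876 over 66. With the replicate block the count for BKM_Sox17 against BKM_Sox2 on Dox was 828 against 826 without it, no count moved by over 1.5 times, and NSCs against MEFs had no such value. Of the members, the block ended the call of Ttr in BKM_FNV against BKM_Sox17 after withdrawal (adjusted p = 0.0583) and gave one to Foxa2 in BKM_FNV against BKM_Sox2 after withdrawal (adjusted p = 0.0484). Depth is unknown, so no detection limit can be given.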
